A study of Mus musculus with 6 samples.

Results

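Siglecs are cell surface lectins that bind sialic acid, the sugar that caps many glycoproteins and glycolipids. The genes described here are 5 mouse Siglec genes, Cd22, Siglecg, Cd33, Siglech and Siglec1, found by symbol among the 23793 gene rows of a Cuffdiff comparison. They were chosen by their FPKM values and calls in this same comparison, so those values are a description and not a test. Messenger RNA had been sequenced from i660BM cells, a C57BL/6 mouse pro-B cell line (an early B cell precursor line) that carries a PU.1 gene switched on by doxycycline and grows with interleukin 7. Of the 6 libraries, 3 were non-induced and 3 were induced with doxycycline (70 ng/ml, 48 h). PU.1, encoded by Spi1, is an ETS family transcription factor of myeloid and B cells. Whether the 3 libraries of each kind are separate cultures is not said in the labels, and the spread behind each deposited p-value could be technical. Doxycycline was never given without the inducible gene, and effects of the drug and of PU.1 cannot be told apart.

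Many Siglecs carry a cytoplasmic inhibitory motif (ITIM) that, once phosphorylated by kinases such as Lyn, recruits the phosphatase SHP-1 (Ptpn6). CD22 and Siglec-G are the Siglecs known from B cells, where they restrain signalling from the B cell receptor. CD33, Siglec-E and sialoadhesin (Siglec1) are known from myeloid cells. Siglec-H is known from plasmacytoid dendritic cells, and it signals through the activating adaptor DAP12 (Tyrobp) rather than an inhibitory motif of its own.

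The start regions of the 4 members with called changes are shown because PU.1 binds DNA around the ETS core GGAA. Each window is the RefSeq sequence (GRCm38.p6, the same assembly as mm10) from 250 bases before to 50 after an annotated start, 5′ to 3′ on the gene's strand, with each GGAA of either strand (TTCC on the other strand) in capitals. The windows lie on chromosome 7 at 30878979 to 30879278 (Cd22, minus strand), 43407989 to 43408288 (Siglecg, plus strand), 43533122 to 43533421 (Cd33, minus strand) and 55767934 to 55768233 (Siglech, plus strand). No window for Siglec1 was used here.
Cd22: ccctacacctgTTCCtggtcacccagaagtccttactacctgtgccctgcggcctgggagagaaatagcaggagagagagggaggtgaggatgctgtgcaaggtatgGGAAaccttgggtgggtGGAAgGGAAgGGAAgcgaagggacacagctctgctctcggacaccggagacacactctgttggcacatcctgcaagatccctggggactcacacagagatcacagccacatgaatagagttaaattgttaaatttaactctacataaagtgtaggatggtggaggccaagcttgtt
Siglecg: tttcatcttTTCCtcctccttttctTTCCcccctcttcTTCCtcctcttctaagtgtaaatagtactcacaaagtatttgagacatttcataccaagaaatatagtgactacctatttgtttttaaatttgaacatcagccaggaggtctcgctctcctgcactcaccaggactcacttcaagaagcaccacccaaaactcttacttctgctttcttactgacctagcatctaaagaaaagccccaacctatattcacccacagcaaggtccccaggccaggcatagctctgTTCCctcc
Cd33: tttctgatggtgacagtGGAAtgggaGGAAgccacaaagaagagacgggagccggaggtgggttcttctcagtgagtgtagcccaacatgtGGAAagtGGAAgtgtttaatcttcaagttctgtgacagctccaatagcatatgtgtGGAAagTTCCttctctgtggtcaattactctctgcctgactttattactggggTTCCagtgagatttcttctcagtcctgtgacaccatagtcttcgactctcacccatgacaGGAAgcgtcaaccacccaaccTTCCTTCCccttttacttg
Siglech: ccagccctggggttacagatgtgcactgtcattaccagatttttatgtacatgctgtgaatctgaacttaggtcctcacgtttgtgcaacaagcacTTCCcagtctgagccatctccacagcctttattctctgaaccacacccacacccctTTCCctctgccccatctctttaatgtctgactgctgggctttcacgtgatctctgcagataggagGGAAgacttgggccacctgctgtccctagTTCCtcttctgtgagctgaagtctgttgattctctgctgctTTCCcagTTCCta

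The Cd33 window held 10 GGAA cores, a number reached by 0.636% of the 32851 promoter windows of the same length. Siglech held 6 (reached by 15.7% of windows), Cd22 held 5 (28.6%) and this Siglecg window held 4 (46.3%). The median window held 3, and 96.0% held at least 1. A further RefSeq window of Siglecg, from 43408030 to 43408329, held 2. The longer PU.1 type motif GAGGAAGT, searched on both strands, was in 3.20% of windows and in none of these. The 6 letter motif GGAAGT, chosen after the windows were read and overlapping the GGAA cores, was in 23.8% of windows, and it occurred once in Cd33 and once in Siglech. The Cd22 and Cd33 windows lie wholly inside the GENCODE M21 spans of their genes (30865402 to 30880342 and 43524216 to 43544428, both minus strand). Which start the cells used was not tested, and the counts hold for these windows only. A match in letters is not a binding site, and binding was not measured.

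The gene Siglecf, also on chromosome 7, had a window that resembled that of Cd33. The local alignment of the pair covered 80 columns with 62 identical bases (77.5%), and of all 15 pairs of Siglec windows no other had more than 25 identical bases. The stretch runs from 160 to 81 bases before the Cd33 start and from 30 bases before to 48 after the Siglecf start. Its exact runs of 12 bases or more were the following, and GGAA cores (capitals) lie in the first and the second but not in the third.
Run of 16 bases: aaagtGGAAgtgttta
Run of 12 bases: gtGGAAagTTCC
Second run of 12 bases: tctctgtggtca
Siglecf itself was near 0 in both groups and was not tested (values given further on).

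Induction was accompanied by an exchange of the leading Siglec. In the non-induced cells Cd22 was the most abundant of the 5, and in the induced cells it was Siglecg. Siglech and Cd33 came up from values near or at 0 to a few FPKM, and Siglec1 stayed near 0. FPKM scales fragments by the length of the transcript and the depth, so levels can be compared between genes. The deposited values are the authors' single value per gene and group, with no value per library. The spread between libraries can therefore not be shown, and whether libraries of the 2 groups overlapped cannot be seen.

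**Figure D1:**
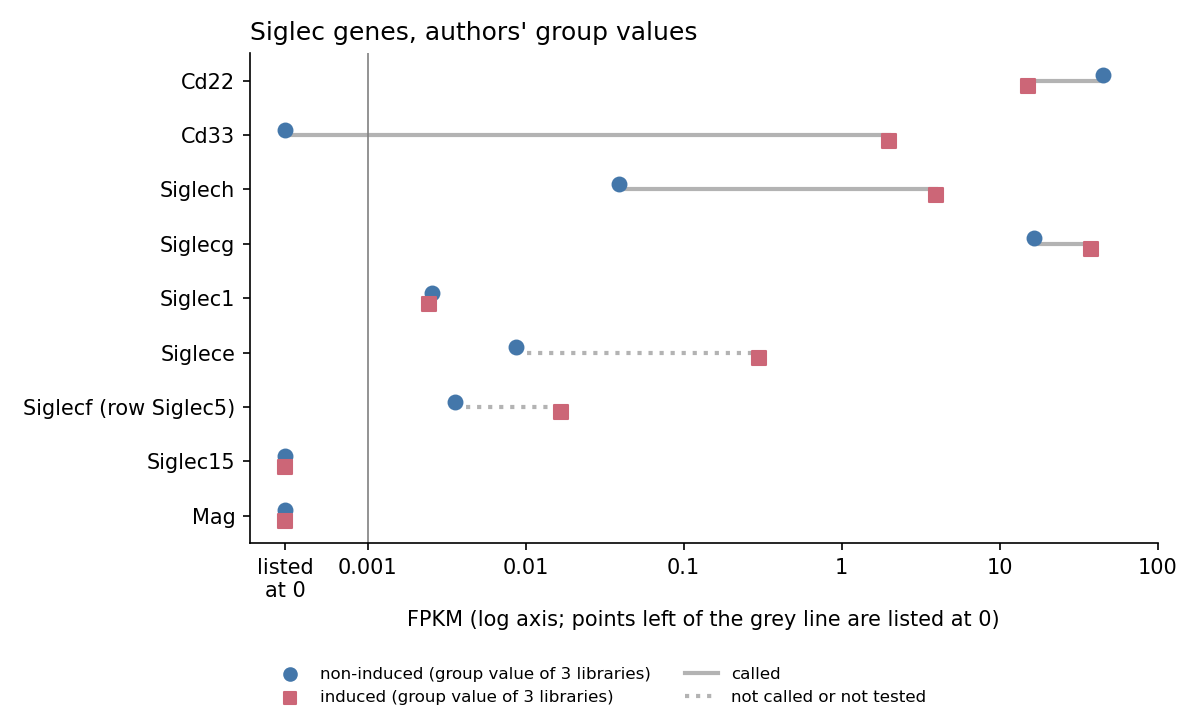
FPKM on a log axis for the 5 members and the 4 other mouse Siglecs, with circles for the non-induced and squares for the induced group value of the authors' deposited table. Cd22 moved to the left from 45.0 to 15.2 FPKM, Siglecg, Siglech and Cd33 moved to the right, and the remaining rows stayed under 1 FPKM; points left of the grey line are listed at 0.

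Cd22, the inhibitory co-receptor of the B cell receptor, went from 45.0 FPKM without to 15.2 FPKM with induction per the authors' deposited table. Its log2 change was -1.57, with an implied standard error of 0.16 (the log2 change divided by Cuffdiff's test statistic), or 2.97-fold lower, per the authors' deposited table. Among 10657 tested rows it ranked 2314 by FPKM without and 5504 with induction per the authors' deposited table. Its fall was number 52 in size among 1721 called falls per the authors' deposited table.

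Siglecg, the other Siglec of B cells, was listed at 16.4 FPKM and 38.1 FPKM per the authors' deposited table. Its log2 change was 1.22 with an implied standard error of 0.15, or 2.32-fold higher, per the authors' deposited table. It ranked 5213 of 10657 by FPKM before and 2678 after induction per the authors' deposited table. The pair of B cell Siglecs thus crossed, Cd22 being 2.75 times Siglecg in non-induced cells and Siglecg 2.52 times Cd22 in induced cells, as FPKM per the authors' deposited table.

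Siglech was listed at 0.0389 and 3.98 FPKM per the authors' deposited table, and its log2 change was 6.68 (implied standard error 0.73). The lower value corresponded to about 11 fragments over the 3 libraries and is an approximation. With 0.1 FPKM added to both values the log2 change was 4.87, and with 1 FPKM it was 2.26, so its size depends on how a value near 0 is treated. Cd33 was listed at 0 without and at 1.99 FPKM with induction per the authors' deposited table, and no fold is given against a listed 0. It was among 22 called rows listed at 0 in non-induced cells per the authors' deposited table. Siglec1, the macrophage receptor sialoadhesin, was listed at 0.00257 and 0.00245 FPKM per the authors' deposited table, which is about 2 fragments in each group. The authors had not tested it, and no change was detectable at this depth.

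A row counts as called where it had been tested by the authors with a q-value below 0.05. On this basis 3 of the 4 tested members were higher (Siglecg and Cd33 at q = 0.000287, Siglech at q = 0.00055) and Cd22 was lower (q = 0.000287) per the authors' deposited table. The value 0.000287 is the smallest q-value and is shared by 1855 rows, so it does not rank them. Cd33, listed at 0 in non-induced cells, has no test statistic beside its q-value. Over all tested rows 35.1% were called, 19.0% as higher and 16.1% as lower, and calls of at least 2-fold made up 2.51% and 1.55%. Among tested rows under 1 FPKM in non-induced cells, as Cd33 and Siglech were, 28.7% were called higher and 11.4% lower. These calls come from the values by which the members were picked, so nothing is read from the comparison with the background. Spi1, the induced gene, checks the group labels and was listed at 36.0 and 246 FPKM per the authors' deposited table.

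The summed level of the 5 genes was nearly equal in the groups, at 61.5 FPKM without and 59.3 FPKM with induction per the authors' deposited table. The share of Cd22 in that sum was 73.3% before and 25.6% after induction, and the share of Siglecg was 26.7% and 64.3%, from values of the authors' deposited table. Siglech and Cd33 together were listed at 0.0389 and 5.97 FPKM per the authors' deposited table, and in induced cells they gave 6.71% and 3.36% of the sum. A sum of group values has no error from libraries here, and whether the 2 sums differ was not tested.

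**Figure D2:**
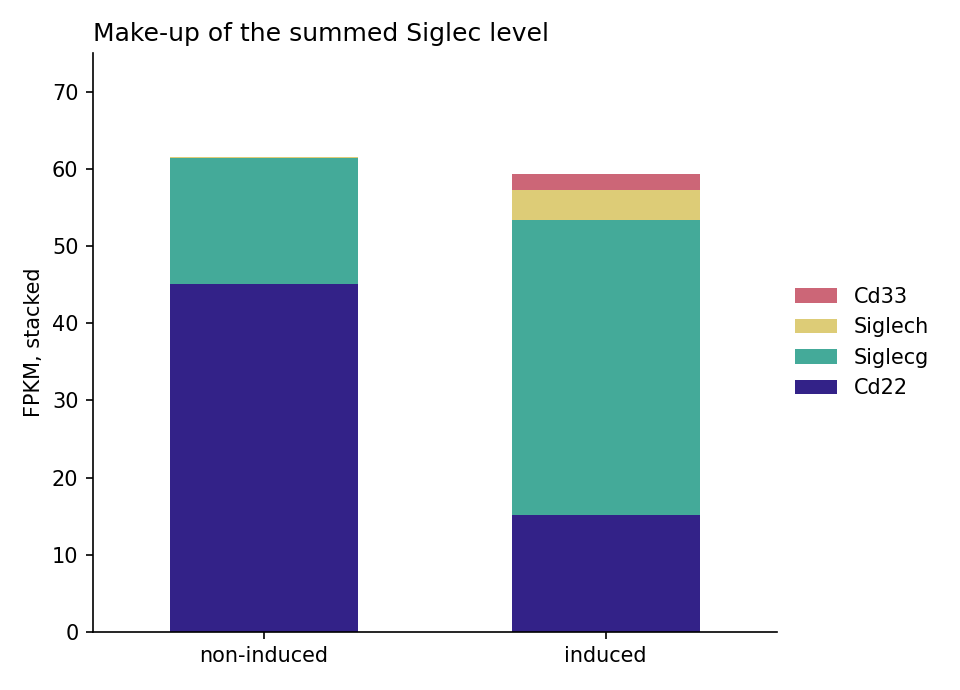
Stacked FPKM of Cd22, Siglecg, Siglech and Cd33 in non-induced and induced cells, from the group values of the authors' deposited table. The bars are of nearly equal height, 61.5 and 59.3 FPKM, and the Cd22 part shrinks while the Siglecg part grows.

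The other mouse Siglecs added little. Siglece, an inhibitory Siglec of neutrophils and macrophages, was listed at 0.00869 and 0.298 FPKM per the authors' deposited table, about 2 and 68 fragments, and was not called (log2 5.10, implied standard error 2.10, q = 0.402). The row named Siglec5 lies at Siglecf, the Siglec of mouse eosinophils, which RefSeq lists with that synonym. It was listed at 0.0036 and 0.0166 FPKM per the authors' deposited table, about 1 and 5 fragments, and was not tested. Mag, a Siglec of myelin, and Siglec15, known from osteoclasts, were listed at 0 in both groups per the authors' deposited table. So 0 of the 4 were called, and only Siglece had been tested.

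Markers of the cell types known for these receptors were read beside them, against 19.0% called higher and 16.1% called lower among all tested genes. For B lineage cells all 13 markers were tested, with 9 called higher and 0 lower, which include Igll1 (538 to 1083 FPKM) and Dntt (2.24 to 6.90 FPKM) per the authors' deposited table. For plasmacytoid dendritic cells, the known site of Siglech, 6 of 13 markers were tested and 2 were higher, Tlr9 (2.51 to 7.97 FPKM) and Cox6a2 (1.00 to 2.96 FPKM) per the authors' deposited table. The Cox6a2 row shares its locus with another. Klk1, Runx2 and Cd209d of the dendritic cell list were at 0 in both groups and not tested, and the Runx2 row shares its locus with another. In that list 7 of the 13 were under 0.1 FPKM in both, and the summed level was 186 and 208 FPKM per the authors' deposited table. Most of that sum was Bst2, Irf8 and Tcf4, which B lineage cells also express. For macrophages 2 of 13 markers were tested and both were higher, Cd68 (1.85 to 6.86 FPKM) and Mrc1 (0.202 to 0.276 FPKM) per the authors' deposited table. The Mrc1 row shares its locus with another, and its call (q = 0.0290) was lost with normal p-values computed from Cuffdiff's deposited statistic (q = 0.426). Of the untested markers Csf1r (0 and 0.192 FPKM), Fcgr1 (0.00641 and 0.187 FPKM), Itgam (0.0133 and 0.151 FPKM), Marco (0 and 0.0808 FPKM) and Emr1 (0 and 0.0512 FPKM) had the higher value with induction, per the authors' deposited table. The Csf1r row shares its locus with another, and values at or near 0 in untested rows can be failed estimates. Mertk was listed at 0.00239 and 0 FPKM per the authors' deposited table. C1qa, C1qb, C1qc, Vsig4 and Cd163 were at 0 in both groups, and the summed level was 2.08 and 7.80 FPKM per the authors' deposited table. Eosinophil and granulocyte markers had 1 of 2 tested members higher, Il5ra (0.881 to 2.18 FPKM), with 7 of 10 at 0 in both groups and a sum of 1.23 and 2.36 FPKM per the authors' deposited table. T and NK cell markers had 1 of 9 tested, which was not called, and summed to 0.313 and 0.218 FPKM per the authors' deposited table. In bulk RNA a change in the number of cells of a type and a change of RNA per cell cannot be told apart, and the part of other cells in the Siglech and Cd33 values was not tested.

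Sialic acid, the ligand of all Siglecs, is made and activated by a short pathway. The list counted here also holds genes of transport, conversion and breakdown. Of the list's 6 tested genes 2 were lower and 0 higher, against 16.1% and 19.0% of all tested genes. The 2, Cmah and Renbp, are not among the genes that make and activate sialic acid. Cmah converts the sialic acid Neu5Ac to Neu5Gc, the form that mouse CD22 prefers. It fell from 7.66 to 3.57 FPKM (log2 -1.10, implied standard error 0.16, q = 0.000287) per the authors' deposited table. Renbp, an epimerase of N-acetylglucosamine, fell from 41.1 to 34.4 FPKM per the authors' deposited table (q = 0.0116). The Renbp call was lost with normal p-values computed from Cuffdiff's deposited statistic (q = 0.327). Nans, which makes sialic acid phosphate and had the highest level of the list, had 72.1 and 66.2 FPKM, without a call (q = 0.270) per the authors' deposited table. The rate-limiting enzyme gene Gne, listed at 17.4 and 17.2 FPKM, was not called per the authors' deposited table (q = 0.884), and Cmas and Slc35a1 were not called either. Nanp, Npl and Slc17a5 were not tested. The median log2 change of the 6 tested genes was -0.13, beside -0.01 over all tested rows.

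Sialyltransferases attach sialic acid to glycans, and the linkage decides which Siglec can bind. Of 8 tested rows 2 were higher and 3 lower, shares to be read beside the 19.0% and 16.1% of all tested genes, and 11 of the 19 rows in the table were not tested. St6gal1, which makes the ligands of CD22, fell from 40.5 to 29.3 FPKM (log2 -0.47, implied standard error 0.15, q = 0.000287) per the authors' deposited table. St3gal2 fell from 8.31 to 5.43 FPKM (log2 -0.61) per the authors' deposited table. A joint row for St6galnac4 and St6galnac6 fell from 39.2 to 32.5 FPKM per the authors' deposited table (q = 0.00642), and the genes cannot be separated there. St3gal6, the most abundant transferase, rose from 50.2 to 66.9 FPKM (log2 0.41) per the authors' deposited table. The polysialyltransferase gene St8sia4 rose from 20.9 to 24.3 FPKM per the authors' deposited table (q = 0.0468). With normal p-values computed from Cuffdiff's deposited statistic, the calls of St8sia4 (q = 0.485) and of the joint row (q = 0.230) were lost. The summed level of the list was 204 and 201 FPKM per the authors' deposited table, with a median log2 change of -0.09 over the tested rows.

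Genes that remove or modify sialic acid were mostly listed near 0 and not tested. The lysosomal sialidase gene Neu1 fell from 14.0 to 11.4 FPKM (q = 0.00281), and Ctsa, which encodes the protective protein that stabilizes it, rose from 37.9 to 47.3 FPKM (q = 0.0008), per the authors' deposited table. Both calls were lost with normal p-values computed from Cuffdiff's deposited statistic (q = 0.177 for Neu1 and 0.145 for Ctsa). Ctsa shares its locus with another row, and fragments may have been split between them. Siae, the esterase that removes O-acetyl groups from CD22 ligands, was listed at 0.0137 and 0.00467 FPKM per the authors' deposited table and was not tested. The remaining 4 genes of this list were not tested.

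**Figure D3:**
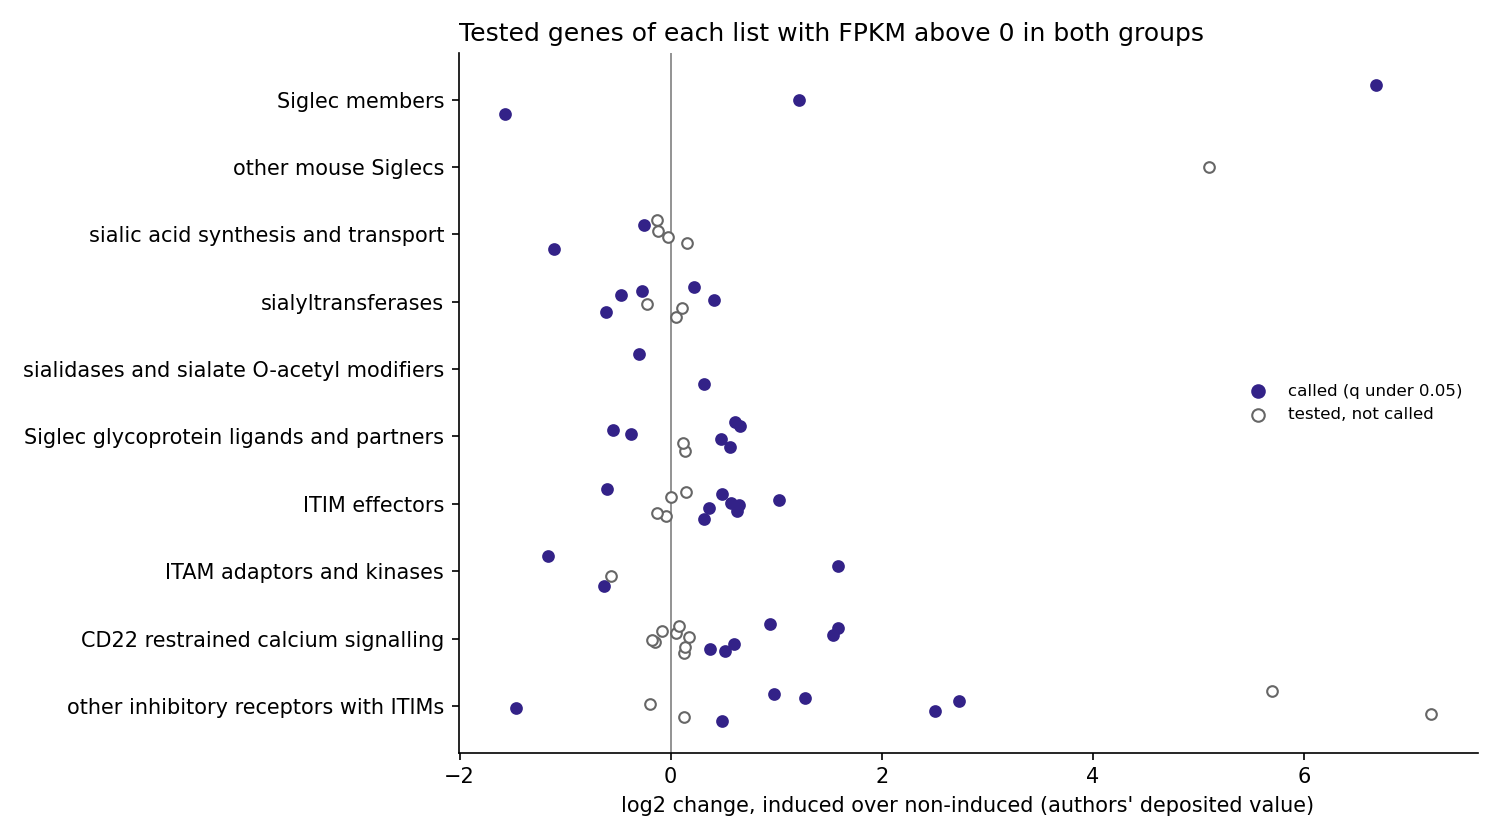
Log2 change (induced over non-induced, from the authors' deposited table) of every tested gene above 0 FPKM in both groups, by gene list, with filled points called at q under 0.05 and open points not called. Sialic acid and sialyltransferase genes lie between -1.10 (Cmah) and 0.41 (St3gal6). Of the 8 called genes in the ITIM effector list, which also holds upstream kinases, 7 lie to the right.

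Proteins that stand beside CD22 at the membrane had 4 of 8 tested genes higher and 2 lower, where 19.0% and 16.1% of all tested genes were. Cd79b, a signalling chain of the B cell receptor, rose from 333 to 462 FPKM (log2 0.47), and the sialylated glycoprotein genes Selplg (57.3 to 90.3 FPKM), Spn (65.2 to 99.7 FPKM) and Cd24a (1211 to 1786 FPKM) rose, per the authors' deposited table. Cd81, a tetraspanin of the B cell surface, fell from 136 to 105 FPKM, and the complement receptor gene Cr2 from 0.424 to 0.290 FPKM, per the authors' deposited table. The Cd81 row shares its locus with another. The Cr2 call was lost with normal p-values computed from Cuffdiff's deposited statistic (q = 0.129). Ptprc, which encodes the CD22 ligand CD45, was listed at 0.00608 and 0.0649 FPKM per the authors' deposited table and was not tested. CD45 is a general leukocyte protein, and values this near 0 in untested rows can be failed estimates.

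Effectors of the inhibitory motif, counted together with kinases that act upstream of it, had 7 of 12 tested genes higher and 1 lower. Of all tested genes 19.0% were higher and 16.1% lower. Lyn, the kinase that phosphorylates the motifs of CD22, rose from 17.0 to 34.6 FPKM (log2 1.03, implied standard error 0.14, q = 0.000287) per the authors' deposited table. Its row shares a locus with another row. The adaptor genes Grb2 (64.2 to 100.8 FPKM) and Dok3 (60.7 to 93.6 FPKM) rose per the authors' deposited table. Inpp5d, which encodes the lipid phosphatase SHIP, rose from 83.6 to 124 FPKM (log2 0.57), and Ptpn6, which encodes SHP-1, from 64.0 to 89.8 FPKM (log2 0.49), per the authors' deposited table. Ptpn11, which encodes SHP-2, was listed at 32.8 FPKM in both groups and was not called (log2 0.00, implied standard error 0.15) per the authors' deposited table. Socs3, a cytokine feedback inhibitor, fell from 5.39 to 3.54 FPKM per the authors' deposited table. Csk, an inhibitory kinase for Lyn and the most abundant of the list, had 245 and 237 FPKM, without a call (q = 0.736) per the authors' deposited table. The median log2 change of the 12 was 0.34, beside -0.01 over all tested rows.

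Activating Siglecs need an adaptor with an ITAM, a motif that docks Syk family kinases. Tyrobp, the adaptor of Siglec-H, was listed at 0 without and at 0.334 FPKM with induction (called, q = 0.000287) per the authors' deposited table. Its level was thus under that of Siglech, at 3.98 FPKM, in induced cells. Hcst, which encodes DAP10, an adaptor without an ITAM, had 2.07 and 1.40 FPKM, without a call (q = 0.0963) per the authors' deposited table. Fcer1g, the most abundant adaptor of the list in both groups, fell from 69.1 to 44.7 FPKM per the authors' deposited table. The kinase genes moved apart, with Syk rising from 25.5 to 76.2 FPKM and Zap70 falling from 43.0 to 19.3 FPKM per the authors' deposited table. In the list of 5, all tested, 2 were higher and 2 lower, against 19.0% and 16.1% of all tested genes.

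The calcium pathway that CD22 restrains had 6 of 14 tested genes higher and 0 lower, beside 19.0% and 16.1% of all tested genes. Besides Syk these were Pik3ap1 (27.4 to 79.9 FPKM), Vav2 (17.0 to 32.8 FPKM), the calcium channel gene Itpr1 (12.9 to 19.6 FPKM), Blnk (174 to 249 FPKM) and Btk (36.7 to 47.6 FPKM) per the authors' deposited table. The Itpr1 row shares its locus with another. The Btk call was lost with normal p-values computed from Cuffdiff's deposited statistic (q = 0.0589). The phospholipase gene Plcg2, with 117 and 121 FPKM, did not pass the threshold (q = 0.697) per the authors' deposited table. The median log2 change was 0.15 over the 14 tested genes. Some genes, Syk among them, stand in more than 1 of these lists, so the counts are not independent.

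Of 10 tested genes for other inhibitory receptors and their relatives, 5 were called higher and 1 lower, beside 19.0% and 16.1% of all tested genes, and 9 of the 19 in the table were not tested. Fcrla, an intracellular relative of the Fc receptors in B cells (0.616 to 4.09 FPKM, log2 2.73), the Fc receptor gene Fcgr2b (4.25 to 24.1 FPKM), Milr1 (6.79 to 16.3 FPKM) and Pecam1 (9.80 to 19.3 FPKM) had the largest called rises per the authors' deposited table. Clec12a (log2 7.20, q = 0.288) and Pirb (log2 5.69, q = 0.403) had larger log2 values from near 0 and were not called, per the authors' deposited table. Fcrl1, a B cell receptor of the Fc receptor like family, fell from 4.61 to 1.67 FPKM (log2 -1.47) per the authors' deposited table. Cd72, the most abundant of the list, rose from 26.3 to 37.0 FPKM per the authors' deposited table. Its call was lost with normal p-values computed from Cuffdiff's deposited statistic (q = 0.112). The rows of Cd72 and Milr1 each share a locus with another row. The summed level of the list was 60.4 and 112 FPKM per the authors' deposited table.

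The genes lie at 3 sites of chromosome 7 and 1 of chromosome 2 (mm10 coordinates of GENCODE M21, protein-coding genes). Cd22 is at 30865402 to 30880342 on the minus strand, with Mag 18.8 kb away. Siglecf, Siglecg (43408204 to 43418358, plus strand), Cd33 (43524216 to 43544428, minus strand) and Siglece form a cluster that starts 12.5 Mb from Cd22, and Siglecg and Cd33 are 106 kb apart. Siglech is at 55768178 to 55778925 on the plus strand, a further 12.1 Mb along. Siglec1 is on chromosome 2 at 131069220 to 131086765, minus strand.

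The 3 nearest tested genes on each side of each member gave 26 different genes other than the members, of which 3 were higher and 5 lower (35.1% of all tested genes were called). Beside Cd22, 3 of 6 were lower and 0 higher. Ffar1, a fatty acid receptor gene 3.84 kb downstream on the same strand, fell from 1.60 to 0.619 FPKM (log2 -1.37) per the authors' deposited table. Ffar2, a short-chain fatty acid receptor gene 41.6 kb away, fell from 3.28 to 0.977 FPKM (log2 -1.75) per the authors' deposited table. Fxyd5 on the other side fell (log2 -0.76), whereas Usf2, between it and Cd22, was not called (log2 0.18), per the authors' deposited table. Within the Siglec cluster the rows between Siglecg and Cd33 did not all change. Etfb, a mitochondrial electron transfer gene, had 98.8 and 96.5 FPKM, without a call (q = 0.821) per the authors' deposited table. Vsig10l rose from 0.269 to 0.525 FPKM (log2 0.96) per the authors' deposited table. Beside Siglech, Tubgcp5 at 15.2 kb was not called (log2 0.17), Cyfip1 at 62.8 kb rose (log2 0.33), and the nearest tested gene on the other side, Gas2, lies 3773 kb away, per the authors' deposited table.

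**Figure D4:**
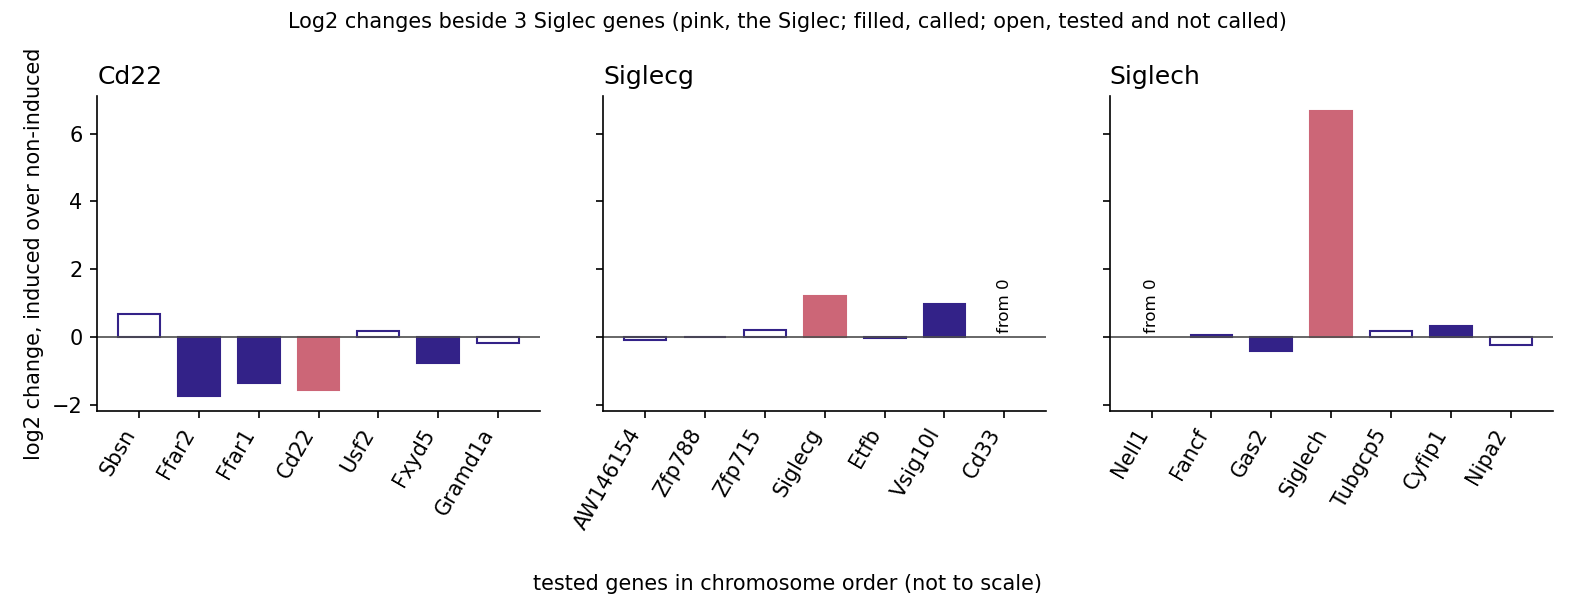
Log2 change (induced over non-induced, authors' deposited table) of Cd22, Siglecg and Siglech and of the 3 nearest tested genes on each side, in chromosome order, not to scale. Ffar2 and Ffar1 (log2 -1.75 and -1.37) lie beside Cd22 (log2 -1.57), and "from 0" marks genes listed at 0 in non-induced cells.

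The genes closest to each member in level were found by distance over the 2 group values on the log2(FPKM + 0.01) scale among the tested rows, so each likeness rests on only 2 points. Among the nearest to Cd22 were Csrp3 (48.8 and 15.5 FPKM, distance 0.12) and Zap70 per the authors' deposited table. Nearest to Siglecg were Lyn (17.0 and 34.6 FPKM, distance 0.15), Gna15 and Il10ra per the authors' deposited table. Nearest to Siglech were Alox5ap (0.0501 and 3.76 FPKM, distance 0.31), Rasa4 and Lmo2, and nearest to Cd33 were Eml1 (0.00213 and 1.82 FPKM, distance 0.31), Epha2 and Cyp27a1, per the authors' deposited table.

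Fragments shared with other genes could bear on these values. Of all 50 base words in the transcripts of each gene, 7.84% of Cd22 words also occur in another gene on either strand, mostly in Gm29439, a gene annotated antisense inside Cd22. For Siglecg the share was 4.64%, mostly with the processed pseudogene Gm29791. It was 0.458% for Cd33, 0.389% for Siglech and 1.33% for Siglec1. None of the 5 rows shares its file locus with another row. The total depth, estimated from the steps between the lowest values, was about 118000000 fragments for the non-induced and 123000000 for the induced group, whereas no depth per library can be given.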

How the data were processed

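RNA from 3 non-induced and 3 induced samples was made into stranded mRNA libraries, per the labels' protocols. The submitters' processing notes name mm10, Cuffdiff 2.1.1, Cufflinks, TopHat2 2.0.9 and Trim Galore 0.2.8.1. For the gene annotation and the strand setting, the processing is not given in the sources used here. For each gene the authors deposited 1 FPKM value per group, the log2 fold change (induced over non-induced), Cuffdiff's test score, and p-value and q-value columns. Of 23793 rows the authors had tested 10657. In 524 rows the deposited log2 change was a spreadsheet error mark.

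Genes were not retested. A row was called where it was tested and the deposited q-value was under 0.05. The members and gene lists were chosen with earlier results of these data known. Named are all Siglecs, up to 4 called rises and 4 called falls per list, the most abundant member, and direct enzymes, adaptors and effectors of Siglecs. Remaining list members named as not called, and markers, were added as values. Some genes that these rules pick are not reported here.

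Fragments per group were estimated from the steps of FPKM times length in genes with 1 transcript of at least 1000 bases. Of values up to about 4 fragments, 69.7% and 65.7% lay within 0.15 of a whole number. Promoters were RefSeq windows, aligned with Biopython 1.88 (match 2, mismatch -3, gap open -5, gap extend -2). The step search and the p-values computed from the test statistic were tested on simulated data. The protein motif comparison that had been planned was not made, since no protein sequences were used here. Analyses used pandas 2.3.3, numpy 2.4.6 and scipy 1.17.1.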

Additional observations from a re-analysis of the deposited data

How the results depend on the processing

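Of 55 recounts of called genes, over 10 gene lists and all tested genes under 5 alternatives, 43 stayed within 1.5 times the reported count and 12 did not. Normal p-values computed from the deposited statistic leave out rows with no statistic, such as Cd33 and Tyrobp. With them 1612 of all tested genes were called in place of 3744, and 3 sialyltransferase rows in place of 5. The list of sialic acid synthesis and transport then had 1 in place of 2, and 0 sialidase genes were called in place of 2. Siglec calls were then 3 in place of 4. The statistic and the deposited p-values are both Cuffdiff's, and the cause of the difference was not tested. Asking for at least 1.5-fold left 1086 genes in all, since most called changes were smaller than that. By list it left 1 of sialic acid synthesis and transport, 1 sialyltransferase and 0 sialidase genes. It also left 2 glycoprotein partners in place of 6 and 4 genes of the ITIM effector list in place of 8. At a q threshold of 0.01 there was 1 gene of sialic acid synthesis and transport. Without rows that share a locus there was 1 sialidase gene, since Ctsa was left out. Of 12 recomputed log2 changes of Cd22, Siglecg, Siglech and Siglece, 0 turned direction. Siglece gave 1.87 with 0.1 FPKM added and 0.36 with 1 FPKM added, in place of 5.10. No value was recomputed for Cd33, whose listed 0 gives no ratio, or for Siglec1, Siglecf, Mag and Siglec15, which were near or at 0. No paired analysis was possible because the deposited table holds 1 value per group, and for the same reason no replicate could be left out.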

Other observations

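Large rises from values near but above 0 were often not called, and Siglece was such a row. Among the tested rows, 46 had a log2 change of at least 4 per the authors' deposited table (a size chosen after the data were seen), and 27 of them were called. Rows listed at 0 in non-induced cells have no log2 change and are not among the 46. Of such rows 22 were called higher, Cd33 among them, and all tested rows listed at 0 in non-induced cells made up 0.244% of the 10657 tested. Of the 16 rows among the 46 that were above 0 but under 0.01 FPKM in non-induced cells, 3 were called. Of the 30 at 0.01 FPKM or more, 24 were called. The median implied standard errors of these 16 and 30 rows were 2.91 and 0.77. Not called per the authors' deposited table were the myeloid receptor genes Pirb (0.00472 to 0.244 FPKM, q = 0.403), Clec12a (0.00393 to 0.578 FPKM, q = 0.288) and Cd300c (0.0266 to 1.20 FPKM, q = 0.402), the haematopoietic factor gene Lmo2 (0.0224 to 2.07 FPKM, q = 0.185) and Alox5ap (0.0501 to 3.76 FPKM, q = 0.106), a protein of leukotriene synthesis with levels close to those of Siglech. Siglech, listed at 0.0389 and 3.98 FPKM per the authors' deposited table, was called (q = 0.00055). A missing call at this level therefore does not show that a gene was unchanged.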
